A study of Zea mays with 45 samples.

Results

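In the mature zone of the maize leaf, 73 of 17555 probe sets on an Affymetrix maize array had a mean signal at least 2 higher on the log2 scale after 24 h of extended night than at dawn, the end of the normal night, while their means in the elongation and division zones lay within 0.3 of dawn in either direction. These 73 probe sets are the members described here, and they were chosen by these 3 differences of group means. Among all probe sets, 368 passed the cut in the mature zone whatever the growth zones did. The annotation names a single gene for 4 members, or 5.48% of them, against 8.27% of all probe sets. These are *ptk1*, *cpi2*, *sdg113* and *SPP2*, and 69 members carry no gene name in the annotation used.

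All plants were of the maize genotype SL (KWS Einbeck) and were kept on a cycle of 14 h of light with 10 h of dark. Leaf tissue came from the mature zone, from the elongation zone 3 to 4.5 cm above the ligule and from the division zone 0 to 1.5 cm above it. Each zone was sampled at dusk, the end of the light period, at dawn, and after the night had been prolonged by 6, 14 and 24 h of further darkness, which makes 15 groups. Every replicate was a pool of 5 plants, so p-values measure the spread between pools. Each group had 3 arrays with values, except the mature zone after 6 h and at dusk and the elongation zone at dusk, which had 2 each. The 24 h samples were thus taken at the hour of dawn and the 14 h samples at the hour of dusk.

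Maize leaves store part of the carbon fixed by day and spend it during the night. When darkness goes on past the usual dawn these reserves run out, and plants turn to other fuels such as protein, amino acids and lipids. The mature zone of a grass leaf is the photosynthetic source of carbon, whereas the division and elongation zones at its base import carbon and build new cells.

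The 42 arrays resembled the others of their group, with a lowest correlation of 0.963. Estimated array weights, which are low for noisy arrays, were 0.0983 to 0.823 for mature tissue, 0.493 to 2.79 for elongating tissue and 0.489 to 5.49 for dividing tissue. The lowest weight belonged to replicate 3 of the mature zone at dawn, 1 of the arrays that chose the members. Its correlation with growth-zone arrays of that time was 0.818, against 0.721 and 0.717 for the other replicates. Chosen without it, the list had 74 probe sets, of which 67 were among the 73. At dusk, markers of photosynthetic cells bore out the labels of the mature and division zones. At dawn the mature-zone arrays were less uniform. Their mean over 4 genes of dividing cells ran from 7.71 to 9.07, against 7.24 to 7.38 at dusk. The mean over 3 mesophyll genes was 13.78 to 13.84 in mature-zone arrays and 6.61 to 6.96 in division-zone arrays at dusk, and 3 bundle sheath genes gave 13.15 to 13.27 and 7.12 to 7.20. Both meristem genes found, *kn1* and *lg3*, lay below 6.34, the 95th percentile of the 66 reporter probe sets, which have no maize target and here set the level called dim.

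The values that chose the members are given as a description. In the mature zone the difference between 24 h of extended night and dawn had a lowest value of 2.01, a median of 2.35 and a highest of 5.13 over the members, or 5.11-fold at the median. It reached 3 in 19 members and 4 in 4 members. In the elongation zone the same difference ran from −0.28 to 0.28 and in the division zone from −0.28 to 0.30. Members just inside the cut were *SPP2* at 2.01 and 2 unnamed probe sets at 2.01 and 2.03, and the nearest probe sets outside it had 1.98, 1.99 and just under 2.

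Seen over all 5 times, the median member level in the mature zone was 6.69 at dusk, 6.69 at dawn, 7.22 after 6 h, 8.46 after 14 h and 9.08 after 24 h. The medians stood at 6.20, 6.30, 6.33, 6.85 and 6.33 in the elongation zone at these times, and at 6.26, 6.40, 6.38, 6.89 and 6.26 in the division zone. In both growth zones the highest of the 5 medians was that of 14 h, a time the choice of members did not use. The mature-zone mean was highest after 24 h in 64 members, after 14 h in 6, after 6 h in 2 and at dusk in 1. At 24 h none of the members was dim in the mature zone, against 29 at dusk. The choice of members required a 24 h mean at least 2 above dawn there, so both counts at 24 h follow in part from it.

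**Figure D1:**
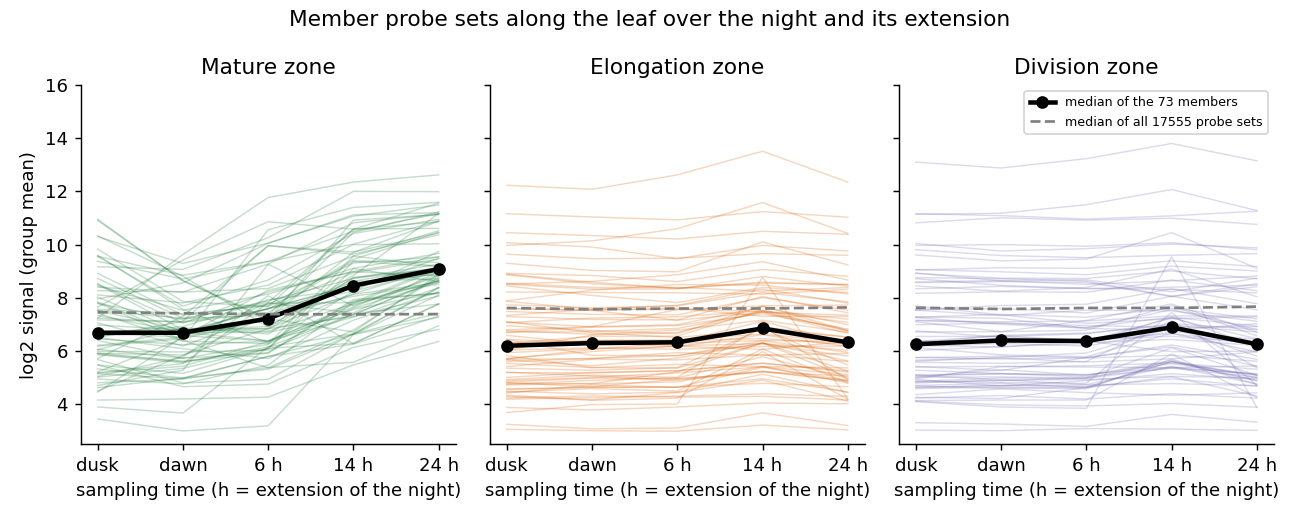
Group mean log2 signal of each of the 73 members (thin lines) at the 5 sampling times in the mature, elongation and division zones, with the member median (black) and the median of all 17555 probe sets (dashed). The black line ends at 9.08 in the mature zone and at 6.33 and 6.26 in the elongation and division zones, where its highest point is at 14 h.

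The level at dawn, from which the members were chosen, was not the day level for all of them. Over the normal night 15 members lay lower by at least 1 in the mature zone, 6 lay higher by at least 1 and 52 lay in between, with differences from −2.29 to 2.39. Set against dusk, 64 members stood at least 1 higher after 24 h, and 44 at least 2 higher. The other 9 lay within 1 of their dusk level after 24 h. These differences use the arrays that chose the members and carry no test.

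The comparison of 14 h of extended night with dusk takes no mean from those arrays and falls at the same clock hour. It is therefore the main test of the members in darkness, though those arrays enter the spread behind its SEs and p-values. In the mature zone 62 of the 73 members were called higher, 84.9% of them, where 34% of all probe sets were called higher (limma, adjusted p under 0.05 over 17555 probe sets). Only 5 were called lower, against 26.8% of all, and 6 were not called, where 60.8% of all probe sets were called in either direction. The median difference was 1.38 over the members and 0.11 over all probe sets, the quartiles of the members were 0.76 and 2.42, and the extremes were −1.49 and 6.18. All 3 arrays after 14 h lay above both arrays of dusk in 61 members and below both in 6, where 36.5% of all probe sets lay above and 28.4% below in this way. Of the 62, 47 were higher by at least 1, a size that 8.7% of all probe sets reached with a call. The reporter probe sets give a scale for this comparison: 21 of 66 were called higher and 0 lower, with no difference above 0.76.

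Markers of other cells also differed in these arrays. In the mature zone, the mean over 4 genes of dividing cells was 8.25 to 8.32 after 14 h and 7.24 to 7.38 at dusk, and 2 of the 4, *cdc2* and *his1*, were called higher. The mean over 4 genes of xylem and secondary walls was 7.17 to 7.41 after 14 h and 9.21 to 9.31 at dusk, with all 4 called lower. Their part in the members' change was not tested, and in whole tissue fewer cells of a type and less RNA per cell cannot be told apart.

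The members were chosen as flat in the growth zones at 24 h, yet at 14 h many were higher there too. In the elongation zone 38 members were called higher after 14 h than at dusk, 52.1% against 21.7% of all probe sets, and 2 were called lower, against 23.8% (45.5% of all were called either way). In the division zone 30 were called higher, 41.1% against 20.6%, and 5 lower, against 24% (44.6% either way). The median differences were 0.52 in the elongation zone and 0.33 in the division zone, where those of all probe sets were 0 and −0.05. Most of these changes were small, with 12 members called and higher by at least 1 in the elongation zone, against 5.75% of all probe sets, and 8 in the division zone, against 4.75%. In all, 43 members were called higher at 14 h in 1 or both growth zones, 58.9% against 26.24% of all probe sets. Both growth zones were called higher in 25 members, 34.25% against 16.05%.

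**Figure D2:**
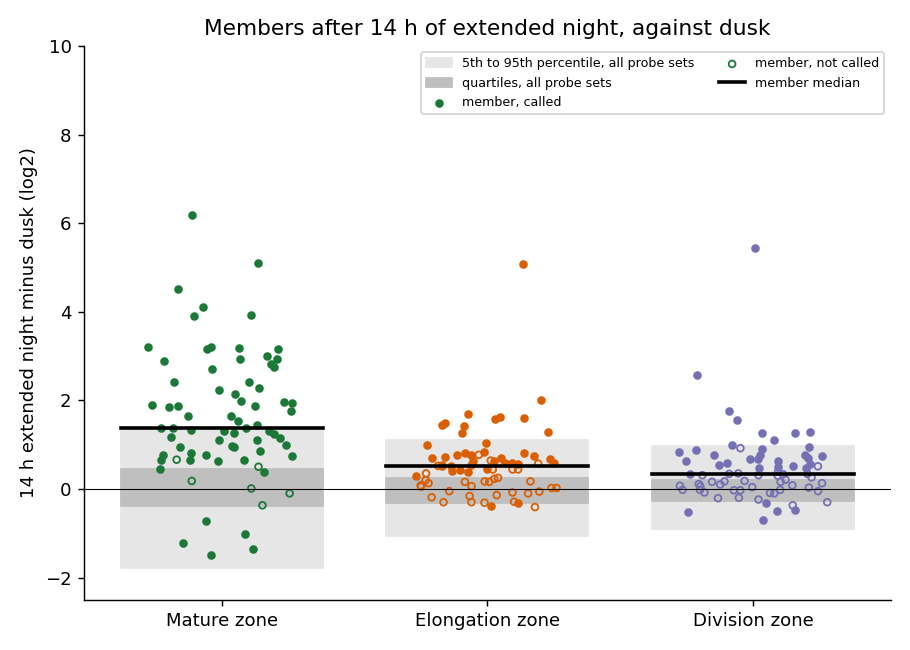
Difference of group means (log2) between 14 h of extended night and dusk for each member (points, filled where called) in the 3 zones, with the member median (black) over the quartiles and the 5th to 95th percentiles of all probe sets (grey). The member medians are 1.38, 0.52 and 0.33 in the mature, elongation and division zones, and the largest growth-zone differences are 5.08 and 5.44.

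The zones were compared directly by the interaction, the difference in the mature zone minus that in a growth zone. Because the members were chosen by a zone difference at 24 h, a larger mature-zone change at 14 h is favoured by the choice. Against the division zone the 14 h change of the mature zone was called larger in 51 members, 69.9% against 29.7% of all probe sets, and smaller in 4, against 22.5%, with 52.2% of all probe sets called either way. Against the elongation zone it was called larger in 46 members, 63% against 23.8%, and smaller in 5, against 20.7%, with 44.5% called either way. The median excess of the mature zone was 1.20 over the division zone and 1.07 over the elongation zone, compared with 0.13 and 0.09 over all probe sets. Of the 66 reporter probe sets, 20 were called larger in the mature than in the division zone and 8 larger than in the elongation zone, with sizes up to 0.86 and 0.73, and 0 were called smaller. For 18 members the mature and division zones were not called different, and for 22 the mature and elongation zones.

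After 6 h of extended night the members had no common direction in the mature zone. Against dusk 25 were called higher, 34.2% against 28% of all probe sets, and 17 lower, 23.3% against 25.5%, so that both shares were near the background, and 42 members were called in all, where 53.5% of all probe sets were. The differences ran from −3.75 to 5.34 with a median of 0.14, and this comparison mixes darkness with the clock hour. Between 6 h and 14 h, 59 members were called higher at the later time, 80.8% against 20.3% of all, and 2 lower, against 16% (36.3% of all either way). The median step between these times was 1.24 over the members and 0.03 over all probe sets. This step, too, mixes longer darkness with the clock hour, as do the steps of single members between these times.

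At dusk the members lay on both sides of the growth zones. In the mature zone 33 were called higher than in the division zone, 45.2% against 35% of all probe sets, and 20 lower, 27.4% against 38.7% (73.7% of all either way). Compared with the elongation zone, 30 were called higher, against 36.1% of all, and 14 lower, against 35.9% (72.1% of all either way). The 33 members above the division zone had median levels after 24 h of 9.33 in mature and 5.44 in dividing tissue, and at dusk of 6.61 and 5.42. The 20 members below it had median levels after 24 h of 9.10 in mature and 8.73 in dividing tissue, and at dusk of 7.80 and 8.84. The 24 h levels come from arrays that chose the members and are a description. Chosen without replicate 3 of dawn, 30 of 74 were higher and 27 lower than in the division zone. In both growth zones 36 members, or 49.32%, were dim at dusk, against 32.03% of all probe sets, and 26 were dim in all 3 zones.

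**Figure D3:**
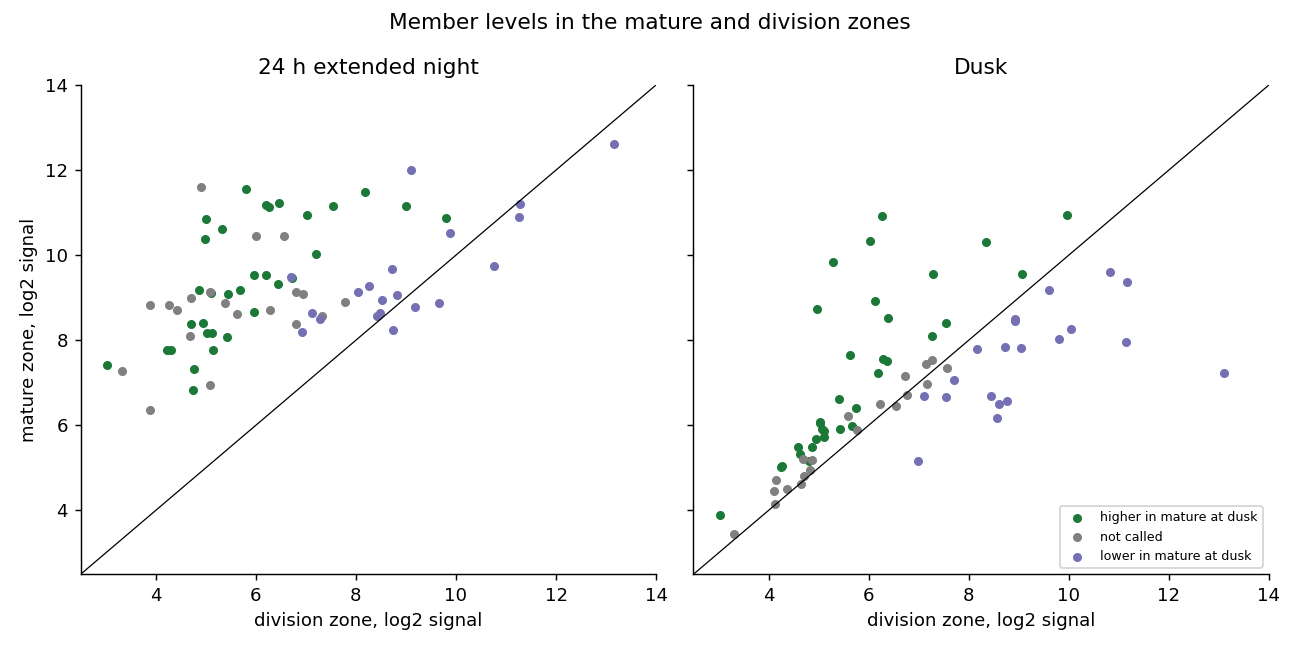
Group mean log2 signal of each member in the mature zone (vertical axis) against the division zone (horizontal axis) after 24 h of extended night and at dusk, coloured by the test between these zones at dusk. The 20 members that were lower in the mature zone at dusk lie right of the diagonal there, and their median level after 24 h is 9.10 in mature and 8.73 in dividing tissue.

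*ptk1* (LOC542378) encodes a receptor-like protein kinase of the cell surface. Its probe set Zm.168.1.A1_at had 9.44, 9.82 and 9.67 in the mature zone after 14 h, against 5.81 and 5.62 at dusk. The groups were far apart, with a difference of 3.93 ± 0.13 (SE; adjusted p = 1.9e-21, limma). Both dusk arrays were dim, and the mean after 14 h lay 3.30 above the dim level. After 6 h it stood at 9.80 and 10.11, higher than at dusk by 4.24 ± 0.15 (adjusted p = 3.4e-21), and the step between 6 h and 14 h of −0.31 ± 0.13 did not pass the test (adjusted p = 0.067). At dawn the arrays had 7.37, 7.50 and 7.05 and after 24 h 10.40, 10.45 and 10.27, so the level was already above that of dusk before the extension began. In the growth zones *ptk1* was dim in every array, between 4.75 and 5.49. The difference at 14 h was 0.38 ± 0.13 in the elongation zone (adjusted p = 0.02), a call lost without replicate 1 after 14 h (0.24, adjusted p = 0.164) or replicate 2 at dusk (0.31, adjusted p = 0.163), and −0.05 ± 0.12 in the division zone (adjusted p = 0.77). The mature zone exceeded the division zone in this change by 3.98 ± 0.18 (adjusted p = 1.3e-17) and the elongation zone by 3.55 ± 0.19 (adjusted p = 1.4e-15).

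*cpi2* (LOC100101525) encodes a cystatin, an inhibitor of cysteine proteases. Its member probe set Zm.14272.3.A1_at had 8.21, 7.31 and 7.99 in the mature zone after 14 h, against 5.05 and 4.84 at dusk, a difference of 2.89 ± 0.22 (adjusted p = 3.9e-13). The 2 groups did not overlap. Both dusk arrays were dim, and the mean after 14 h lay 1.50 above the dim level. After 6 h the arrays had 5.43 and 5.51, a difference of 0.53 ± 0.24 that did not pass the test (adjusted p = 0.064), and the step between 6 h and 14 h was 2.37 ± 0.22 (adjusted p = 2.2e-10). After 24 h the arrays had 9.06, 9.13 and 9.22, against 4.62, 5.07 and 4.62 at dawn. In the growth zones at 14 h all arrays but 1 were dim, as were all at dusk, so the sizes there, and the interactions built on them, rest on dim values. In the division zone the arrays had 5.96, 6.75 and 5.63 after 14 h, against 5.00, 4.71 and 4.79 at dusk, a difference of 1.28 ± 0.20 (adjusted p = 2.0e-06). In the elongation zone the difference was 1.04 ± 0.22 (adjusted p = 1.9e-04), and the mature zone exceeded these changes by 1.61 ± 0.29 (adjusted p = 2.8e-05) and 1.85 ± 0.31 (adjusted p = 9.9e-06).

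The other 3 probe sets of *cpi2* are not members, and they differ from it and among themselves. After 14 h they differed from dusk in the mature zone by 0.71 ± 0.23 (adjusted p = 0.0081) for Zm.14272.3.S1_at, 0.16 ± 0.19 (adjusted p = 0.5) for Zm.14272.4.S1_x_at and 0.50 ± 0.22 (adjusted p = 0.047) for Zm.14272.5.S1_x_at. For Zm.14272.4.S1_x_at the mature-zone change was smaller than in the elongation zone, with an interaction of −1.18 ± 0.27 (adjusted p = 6.8e-04), the opposite direction to the member. Zm.14272.5.S1_x_at also went against the member there, at −1.05 ± 0.31 (adjusted p = 0.006). For Zm.14272.3.S1_at the interactions, −0.03 ± 0.32 with the elongation zone and 0.09 ± 0.31 with the division zone, did not pass (adjusted p = 0.96 and 0.82). Its differences between 24 h and dawn, given as a description, were 1.13 for mature, −0.14 for elongating and −0.23 for dividing tissue. The suffix of the pair ending in x_at marks probe sets that may bind other transcripts as well, and which probe set reads *cpi2* best was not tested.

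*sdg113* (LOC541980) encodes a SET-domain protein, a family that includes histone methyltransferases. Its probe set Zm.12718.2.S1_a_at had 7.29, 7.96 and 8.23 in the mature zone after 14 h, against 6.65 and 6.66 at dusk, a difference of 1.17 ± 0.16 (adjusted p = 1.5e-07) without overlap. After 6 h it already had 7.83 and 7.77. After 24 h it had 8.98, 8.46 and 8.48, against 6.48, 6.50 and 6.61 at dawn. At 14 h the elongation zone differed by 0.69 ± 0.16 (adjusted p = 5.5e-04) and the division zone by −0.03 ± 0.14 (adjusted p = 0.9). The mature zone exceeded the division zone by 1.20 ± 0.22 (adjusted p = 2.4e-05), while its excess over the elongation zone, 0.47 ± 0.23, did not pass (adjusted p = 0.09) but passed without replicate 1 of the mature zone after 14 h (0.74, adjusted p = 0.00101). A second probe set of the gene, Zm.12718.2.A1_at, differed in the mature zone by 0.30 ± 0.14 at 14 h (adjusted p = 0.07) and is not a member.

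*SPP2* (LOC542661) encodes a sucrose-phosphatase, the enzyme of the last step of sucrose synthesis. Its probe set Zm.8470.1.S1_at was dim in the mature zone at all times before 24 h, and in the growth zones in every array. All its sizes at 14 h thus rest on dim values. It had 5.70, 5.68 and 5.34 there after 14 h, against 4.96 and 4.67 at dusk, and 6.50, 6.94 and 7.42 after 24 h, against 5.17, 5.21 and 4.46 at dawn. At 14 h the difference from dusk was 0.76 ± 0.23 in the mature zone (adjusted p = 0.0056), 0.81 ± 0.23 in the elongation zone (adjusted p = 0.0049) and 0.89 ± 0.21 in the division zone (adjusted p = 7.2e-04). The interactions were −0.04 ± 0.33 (adjusted p = 0.93) against the elongation zone and −0.13 ± 0.31 (adjusted p = 0.76) against the division zone. The mature-zone difference is no larger than the largest among the reporter probe sets, and its call was lost without replicate 2 at dusk (0.62, adjusted p = 0.0824). In the elongation and division zones the largest reporter differences were 0.44 and 0.31 in size, below the 0.81 and 0.89 of *SPP2*. The elongation-zone call was lost without replicate 1 after 14 h (0.58, adjusted p = 0.0504) or replicate 2 at dusk (0.72, adjusted p = 0.0604).

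**Figure D4:**
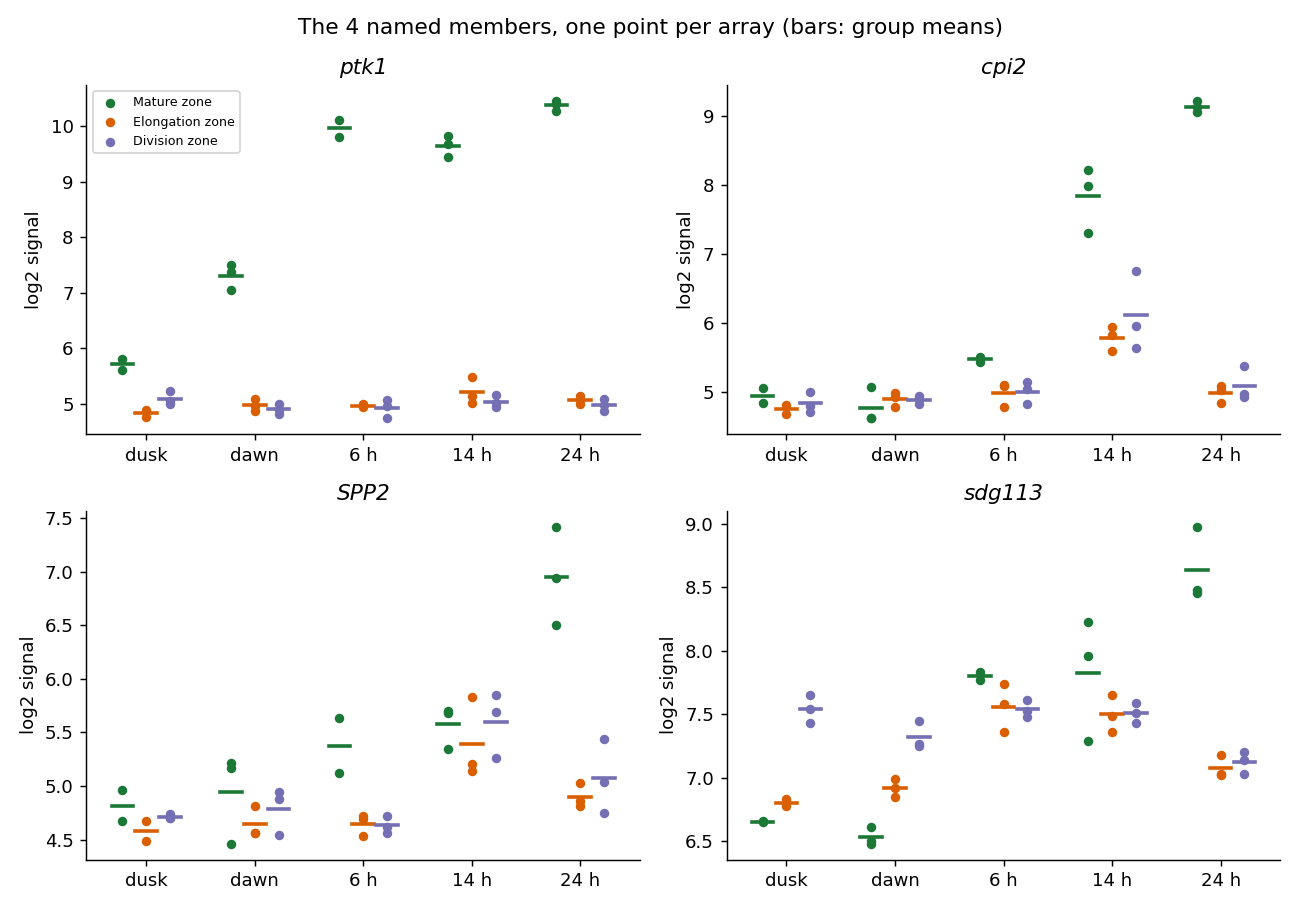
Log2 signal of *ptk1*, *cpi2*, *SPP2* and *sdg113* in every array (points) at the 5 sampling times, coloured by zone, with group means as bars. *ptk1* is at 9.80 and 10.11 in the mature zone after 6 h, *cpi2* is at 5.43 and 5.51 there, and *SPP2* passes 6 in any zone only in the 3 mature-zone arrays after 24 h.

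Among the unnamed members, the largest mature-zone difference at 14 h belonged to Zm.17087.1.S1_at, which had 11.45, 11.40 and 11.36 after 14 h, against 5.31 and 5.13 at dusk. The difference was 6.18 ± 0.44 (adjusted p = 7.5e-14). Both dusk arrays were dim, and the mean after 14 h lay 5.06 above the dim level. The same probe set had the highest difference between 24 h and dawn. One of its arrays at dawn, replicate 1, was at 8.38, whereas the others were at 5.50 and 5.51. The next, Zm.4510.1.A1_a_at, had 12.27, 12.29 and 12.48 in the mature zone after 14 h, against 7.16 and 7.31 at dusk, a difference of 5.11 ± 0.15 (adjusted p = 1.5e-22). It was bright at the base of the leaf throughout, and at dusk the mature zone lay below the division zone by a difference of −5.86 ± 0.15 (adjusted p = 1.3e-25). After 24 h the mature zone had 12.59, 12.69 and 12.57 and the division zone 13.06, 13.18 and 13.22, so that the gap had nearly closed.

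At the other end, Zm.5885.1.A1_at had 8.63, 9.04 and 8.85 in the mature zone after 14 h, against 10.31 and 10.34 at dusk, a difference of −1.49 ± 0.19 (adjusted p = 3.4e-08). It was lower still after 6 h, at 6.81 and 6.99, and stood at 11.34, 10.93 and 11.22 after 24 h. In the division zone its difference at 14 h was 1.26 ± 0.17 (adjusted p = 2.3e-07), from dusk arrays at 6.21, 5.80 and 6.05 that were all dim. The interaction of −2.74 ± 0.25 (adjusted p = 1.3e-10) tests this opposition, and its size rests in part on those dim values. Zm.2042.1.A1_a_at fell by 1.35 ± 0.34 in the mature zone at 14 h (adjusted p = 8.5e-04), with 8.19, 8.17 and 8.39 after 14 h, against 9.58 and 9.62 at dusk. After 24 h it had 9.89, 9.59 and 9.76, close to its day level. At dawn its arrays had 6.72, 6.99 and 9.00, and the last is the replicate that stands apart.

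Zm.375.1.S1_at, singled out after its values were seen, had the largest change of all members in both growth zones. In the division zone it had 9.54, 10.43 and 8.65 after 14 h, against 4.22, 4.25 and 3.83 at dusk, a difference of 5.44 ± 0.71 (adjusted p = 1.6e-07) from a dim level. The elongation zone behaved likewise, with 5.08 ± 0.80 (adjusted p = 3.2e-06), and the mature zone gave 4.52 ± 0.80 (adjusted p = 1.1e-05). After 24 h the division zone was at 3.76, 3.96 and 3.93, while the mature zone remained at 8.38, 8.61 and 9.49. At dawn the mature-zone arrays had 10.13, 4.98 and 4.52, so its membership rests on a mean over arrays that differ widely.

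The named probe sets outside the members whose 15 group means followed each named member most closely were ranked by Pearson's r, as a description over means that share arrays. For *ptk1* these were *gst39* (0.962), *iaglu* (0.959) and *gst23* (0.957). For *cpi2* they were *prpo2* (0.912), *elfa2* (0.909) and *igl1* (0.876), and for *SPP2* *mtl2* (0.927), *ohp1* (0.916) and *igl1* (0.882). The values for *sdg113* were lower, with *SE1B* at 0.836, *elfa2* at 0.826 and *NIT1* at 0.819.

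Named genes of pathways tied to carbon shortage give the setting of the members in the mature zone at 14 h against dusk. A single list held a member, that of proteinase inhibitors and pathogenesis-related genes, through *cpi2*, whose brightest probe set is not the member. In that list 7 of 15 genes were called higher and 3 lower, with a median of 0.24, beside 34% higher, 26.8% lower and a median of 0.11 over all probe sets. Of the called genes, *prp4* at 0.51 and *opr7* at −0.71 were smaller in size than 0.76, the largest reporter difference. The wound-induced proteinase inhibitor *wip1* was higher by 4.60 ± 0.76 (adjusted p = 3.6e-06), the chitinase *chn1* by 3.62 ± 0.50 and the beta-glucosidase *glu1* by 3.10 ± 0.35, while *glu2* fell by 3.60 ± 0.32. Of these, *wip1* was also higher in the elongation and division zones, at 5.98 and 5.18, and *glu1* was at 0.11 and −0.03 there, neither called. In the elongation zone *chn1* was at 1.64 and *glu2* at −1.61, both called. In the division zone they were at 0.24 and −0.12, neither called. The interactions were fitted for all probe sets, but they are not given here for these genes.

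Genes of amino acid breakdown and asparagine synthesis moved in every zone at 14 h. All 3 on the array were called higher in the mature, elongation and division zones, with medians of 2.74, 5.27 and 5.15, and the asparagine synthetase *asn1* stood at 5.48 ± 0.53, 6.75 and 6.20. In the mature zone, 7 of 9 dehydrin, LEA and ABA response genes were higher and 0 lower, with a median of 0.42. The G-box factor *gbf1* stood at 3.43 ± 0.20 and the phosphatase *pp2c* at 1.48 ± 0.12, while the other 5 called genes, *dhn1*, *dhn2*, *emb5*, *mlg3* and *vp14*, had differences of 0.36 to 0.64, within the range of the reporter probe sets. Fatty acid oxidation and glyoxylate genes gave 3 higher and 1 lower of 5, with the malate synthase *mas1* at 4.53 ± 0.41. In this list *cat1*, called higher at 0.59, was within the reporter range. Of 5 SnRK1 and sugar signalling genes 4 were higher, with a median of 0.28. The kinase gene *snrk1* was higher by 2.78 ± 0.17 and the fructokinase *frk1* by 0.81 ± 0.11, and *akin1* at 0.28 and *sra* at 0.25 were within the reporter range. Of 2 starch degradation genes 1 was higher, *zpu1*. Glutathione transferases were divided, with 13 of 31 higher and 7 lower, beside 34% higher and 26.8% lower among all probe sets. Of those higher, *gst3*, *gst6*, *gst8*, *gst14*, *gst28*, *gst35* and *gst42*, at 0.28 to 0.67, were within the reporter range. Among those lower, *gst5*, *gst18* and *gst31*, at −0.35, −0.54 and −0.47, were also smaller in size than 0.76. However, 0 reporter probe sets were called lower in this comparison.

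Other lists ran lower or mixed in the mature zone at 14 h. Growth wall genes had 11 of 21 lower and 4 higher, with *cesa7* at −4.37 ± 0.17 and *xet1* at 3.32 ± 0.21. Nitrogen assimilation had 5 of 8 lower and 1 higher, with the glutamine synthetase *gln6* at −2.78 ± 0.14, and senescence proteases had 4 of 7 lower and 2 higher, with *see2b* at −1.66 ± 0.13. Sucrose and invertase genes had 3 of 9 higher and 3 lower, photosystem genes 1 of 9 higher and 2 lower, and seed storage and oil body genes 1 of 7 higher and 0 lower, beside 34% higher and 26.8% lower among all probe sets. Of those higher, *mir1*, *mir2*, *gln5*, *sh1*, *incw2*, *lhcb5*, *ole1*, *expa2* and *expb3*, at 0.31 to 0.59, were within the reporter range. Among those lower, *mir3*, *gln1*, *gln2*, *incw1* and *psbs1*, at −0.34 to −0.65, were also smaller in size than 0.76.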

How the data were processed

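RNA of 3 leaf zones at 5 times was read on 45 arrays. The deposited values are log2 signals from RMA, as the submitters' processing notes give for the authors' work. RMA corrects background, normalizes quantiles between arrays and summarises each probe set, which can hide a change common to all transcripts. Its version is not given in the sources used here. For 3 arrays the columns are empty, namely both upper zones' replicate 3 at dusk and the mature zone's replicate 2 after 6 h, which leaves 42 arrays. No column (0) belonged to another series. From 17734 probe sets, 113 control and 66 reporter probe sets were left out, and 17555 were tested.

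A model with a mean for each of the 15 groups was fitted in limma 3.58.1 (lmFit, eBayes; R 4.3.3). Every probe set has a single estimate of spread from all groups, with 27 residual degrees of freedom. There were 9 comparisons, none of which takes the mean of a group that chose the members. The arrays of those groups do enter the shared spread, and so the SEs and p-values. Benjamini-Hochberg adjustment ran over all tested probe sets of a comparison, and called means an adjusted p under 0.05. The number of arrays limits the precision, with a median SE of 0.13 for 3 against 2 arrays.

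The members and gene lists were chosen with earlier results of these data known. Every member with a single annotated gene is named, with all probe sets of its gene where they disagree, and of the others the 2 with the highest and the 2 with the lowest mature-zone difference at 14 h. Likeness was ranked over the named probe sets that are no members, 3 for each named member. Names came from the probe annotation and, for 1377 of 1452 probe sets with a single gene, from the RefSeq genes of assembly Zm-B73-REFERENCE-NAM-5.0. In lists the brightest probe set of a gene was used, and 4 symbol matches that belong to another gene were left out after their values had been seen. Replicate numbers were checked for pairing: deviations from the group means correlated between −0.20 and 0.12 over 14 same-numbered pairs. The 1 comparison with 3 shared numbers did not have all pairs over 0.1, so the fit has no block. Pairs between zones were checked at dusk only, so pairing between zones after 14 h was not tested. Alternatives were array weights, a replicate block, centred arrays, no dim probe sets, a stricter threshold, the compared groups alone, other settings of the choice of members and each array left out.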

Additional observations from a re-analysis of the deposited data

Results flagged for a closer look

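These results stood out because the same contrast, 14 h of extended night against dusk, differed between leaf zones by a test of the difference itself (limma interaction, adjusted p under 0.05). The members were chosen by a zone difference at 24 h, and this choice favours a larger mature-zone change at 14 h as well. Between the mature and division zones 55 of the 73 members were called, 51 with a larger and 4 with a smaller change in the mature zone, where 52.2% of all probe sets were called. Between the mature and elongation zones 51 were called, 46 larger and 5 smaller, where 44.5% of all probe sets were called. Among named members, *ptk1* had a larger change in the mature zone by 3.98 than in the division zone and by 3.55 than in the elongation zone. The member probe set of *cpi2* had a larger change in the mature zone by 1.61 and 1.85 in the same comparisons. These sizes rest on mostly dim growth-zone values. The other probe sets of *cpi2* did not share them. Against the division zone they gave 0.09, −0.79 and −0.63, of which only −0.79 was called. Against the elongation zone they gave −0.03, not called, and −1.18 and −1.05, both called smaller. The member probe set of *sdg113* had a larger change by 1.20 than in the division zone. Its other probe set gave 0.18 there, not called, from dim values.

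A signal also appeared among the probe sets that were kept out of the comparisons. Of the 66 reporter probe sets, which have no maize target, 21 were called higher in the mature zone after 14 h than at dusk. Their differences did not exceed 0.76 in size. In this comparison 1 of them was called higher and 0 lower in the elongation zone, and 0 higher and 1 lower in the division zone. The cause was not tested.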

How the results depend on the processing

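The choice of members depended most on its own limits: a cut of 1.5 in the mature zone gave 181 members and a window of 0.5 in the growth zones 125, against 73. Centring each array on its median gave 83, of which 68 were among the 73, and leaving out any of the arrays that chose them gave 70 to 80. Counts of members called in either direction, which are the counts given here, stayed within 1.5 times under all alternatives run. With each array left out, they were 62 to 68 in the mature zone at 14 h against dusk. They were 30 to 37 in the elongation zone, all below the 40 of the full fit, and 32 to 35 in the division zone. The interactions with these zones had 46 to 53 and 51 to 58. Those for 6 h were 38 to 43, for 14 h against 6 h 57 to 62, and for the mature zone at dusk 40 to 43 against the elongation zone and 46 to 50 against the division zone. With a replicate block, 67 members were called in the mature zone at 14 h, 41 in the elongation zone and 35 in the division zone, and 51 and 54 in the interactions. With array weights, 52 members were called in the elongation zone and 51 in the division zone, against 40 and 35. With members chosen without replicate 3 at dawn, the mature zone at 14 h had 60 of 74 higher and 6 lower. Among all probe sets, the fit of the compared groups alone called 2506 between 14 h and 6 h, against 6365. Centring put the median of all probe sets between the mature and division zones at dusk at 0.17, against 0.01. For named genes, 21 of 36 differences were called: over their alternatives the call was kept in 273 cases and lost in 6, and the other 15 gained a call in 10 of 193 cases, with no called direction turned. Beyond these counts, the 2 arrays of 3 groups and the noisier mature zone limit the precision, and a shared spread can understate the error there.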
